A study of Mus musculus with 419 samples.

Results

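The 71 genes described here are the cytochrome P450 genes of families 1 to 4 that the mouse libraries of this series detected. They were chosen by symbol (Cyp, a family number from 1 to 4, a subfamily letter and a gene number) and by a summed count of at least 100 over all libraries, which 71 of 75 matching symbols among 55487 annotated genes met. The 4 left out were Cyp4a29, Cyp2d34, Cyp2c66 and Cyp2d11, with 5, 42, 53 and 54 counts in all. The members nearest above the limit were Cyp2w1 with 104 counts and Cyp2b23 with 262. Genes whose symbols end in a second letter, such as Cyp4a12a, are not members and appear only in the gene lists.

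The study profiled 19 tissues by bulk poly(A) RNA sequencing in mice that model REDs, the syndrome of athletes whose energy intake does not cover their expenditure. All mice were of the strain CBA/CaJ. Each tissue was compared between Control (energy-sufficient) and Deficient (energy-deficient) mice of each sex, sampled at zeitgeber time (ZT, hours after lights on) 5 or 17. The diet or exercise regimen, its length and the age of the mice are not given in the sources used here. There are 3 libraries for each combination of sex, treatment and time, so that a treatment arm of 1 sex holds 6 libraries and 16 of the 19 tissues have both sexes; 1 male library of the tibialis anterior tendon is missing, which leaves 419. By the animal numbers in the sample descriptions, 12 females and 24 males gave these tissues, so libraries of different tissues can come from the same mouse and the tissues are not independent.

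P450 enzymes are heme proteins of the endoplasmic reticulum that insert oxygen into lipophilic molecules with electrons from the reductase Por. Families 1 to 3 act mainly on foreign compounds, steroids and retinoids, and family 4 mainly on fatty acids and eicosanoids. The liver holds most of them, and many are set by ligand-activated receptors: the aryl hydrocarbon receptor for family 1, the constitutive androstane receptor (CAR, gene Nr1i3) for Cyp2b10, the pregnane X receptor (PXR, Nr1i2) for Cyp3a11, and the peroxisome proliferator-activated receptor alpha (PPARA) for Cyp4a10 and Cyp4a14. In rodent liver many members differ between the sexes under the control of the sex-dependent secretion of growth hormone. Local P450 enzymes of lung club cells and of kidney tubules act on inhaled toxicants and on arachidonic acid.

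The members lie in arrays of near copies. The Cyp2c subfamily has 14 members on chromosome 19, Cyp2j has 8 on chromosome 4 over 636.62 kb, Cyp3a has 7 on chromosome 5, Cyp2d has 6 on chromosome 15 over 423.767 kb, and Cyp2b has 5 on chromosome 7. Reads from such copies can be assigned to the wrong gene. Of the 50-base words in a member's exons, a median of 5.11% also occurred in another gene, 20 members shared at least 20%, and 19 shared under 1%. Cyp2c40 (60.3%), Cyp2c69 (54.3%) and Cyp2c67 (52.8%) shared most, and values of Cyp2a4 (38.0%), Cyp2a5 (37.0%), Cyp3a59 (30.0%), Cyp3a25 (26.8%), Cyp4a32 (43.8%) and Cyp4a10 (29.8%) are uncertain for the same reason. Cyp2b10 (8.70%), Cyp3a16 (10.7%) and Cyp2d22 (4.13%) shared few.

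Cyp2a4 (a steroid hydroxylase) and Cyp2a5 (a coumarin hydroxylase) show how alike such copies are: their coding sequences differ at 23 of 1482 positions. Coding bases 550 to 669, from the GENCODE M21 transcripts (GRCm38), are shown because this window holds 6 of those differences. The capitals mark the differing bases, and both genes are taken up below for their levels in female liver and in kidney.
Cyp2a4: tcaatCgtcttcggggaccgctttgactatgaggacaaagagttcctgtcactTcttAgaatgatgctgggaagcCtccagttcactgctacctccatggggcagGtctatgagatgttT
Cyp2a5: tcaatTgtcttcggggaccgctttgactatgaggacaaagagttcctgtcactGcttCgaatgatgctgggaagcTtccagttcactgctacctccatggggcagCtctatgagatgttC

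The promoters of 2 further pairs are shown because their genes lead the results in liver. Cyp2b9 and Cyp2b10 rose in the liver of Deficient males from a like low level, while Cyp3a25 and Cyp3a59 rose in both sexes and differed in their day-night change with treatment. Each window runs from 250 bases before to 50 after the gene's start in RefSeq's annotation of GRCm38.p6, on the coding strand: Cyp2b9 at chr7:26173159-26173458 (plus strand), Cyp2b10 at chr7:25897408-25897707 (plus), Cyp3a25 at chr5:146009569-146009868 (minus) and Cyp3a59 at chr5:146079008-146079307 (plus). Capitals mark matches, on either strand, of TATAAA (core promoter box), AGGTCA (nuclear receptor half-site), TTATGTAA (PAR bZIP box) and GTTAAT (HNF1 half-site).
Cyp2b9: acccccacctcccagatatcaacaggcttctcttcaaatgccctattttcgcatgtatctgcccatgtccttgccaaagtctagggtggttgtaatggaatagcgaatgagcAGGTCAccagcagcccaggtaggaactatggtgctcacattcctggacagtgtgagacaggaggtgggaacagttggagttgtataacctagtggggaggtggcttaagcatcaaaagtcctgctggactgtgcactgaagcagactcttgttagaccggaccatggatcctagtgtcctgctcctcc
Cyp2b10: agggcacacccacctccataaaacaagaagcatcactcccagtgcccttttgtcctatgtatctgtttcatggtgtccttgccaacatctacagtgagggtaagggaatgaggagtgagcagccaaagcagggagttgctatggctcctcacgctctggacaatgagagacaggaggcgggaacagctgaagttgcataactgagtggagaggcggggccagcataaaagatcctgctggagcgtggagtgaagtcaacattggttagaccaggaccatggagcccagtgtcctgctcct
Cyp3a25: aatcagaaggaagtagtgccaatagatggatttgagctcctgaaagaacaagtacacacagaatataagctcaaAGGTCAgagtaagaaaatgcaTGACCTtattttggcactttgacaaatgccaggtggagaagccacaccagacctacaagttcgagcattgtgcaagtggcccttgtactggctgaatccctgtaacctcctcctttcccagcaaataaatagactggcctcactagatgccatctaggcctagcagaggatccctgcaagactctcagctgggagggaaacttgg
Cyp3a59: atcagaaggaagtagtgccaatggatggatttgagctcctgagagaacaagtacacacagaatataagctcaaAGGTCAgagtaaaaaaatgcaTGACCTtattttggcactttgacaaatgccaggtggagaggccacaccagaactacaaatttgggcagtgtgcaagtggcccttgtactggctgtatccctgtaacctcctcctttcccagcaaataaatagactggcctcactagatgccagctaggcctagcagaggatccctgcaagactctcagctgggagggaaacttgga

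The Cyp3a25 and Cyp3a59 windows differed at 13 of 301 aligned positions (95.7% identity), and both hold AGGTCA on each strand, beginning at -176 and -155 in Cyp3a25 and at -177 and -156 in Cyp3a59. Both also hold 1 unmarked match of TGTTCT (glucocorticoid half-site), at -206 in Cyp3a25 and -207 in Cyp3a59. The Cyp2b9 and Cyp2b10 windows were 71.7% identical, with 88 of 311 aligned positions differing. Cyp2b9 has 1 AGGTCA match at -138, and the Cyp2b10 window has no match of these 4 motifs and holds GCGTG (dioxin response core) at -101 and -9. Of the 71 members 59 had a promoter in the RefSeq table. TATAAA was in 25 of them (42.4%), against 13.6% of all 32851 promoters of the same length. AGGTCA was in 18 (30.5% against 16.3%) and GTTAAT in 9 (15.3% against 7.10%). GCGTG was in 13 (22.0% against 32.4%), CACGTG (E-box) in 2 (3.39% against 7.15%), TGTTCT (glucocorticoid half-site) in 18 (30.5% against 19.0%), TTCNNNGAA (STAT element) in 4 (6.78% against 8.30%), and TTATGTAA in 0 (against 0.938%). All were searched on both strands and a match of so short a word describes the sequence only.

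Library totals ran from 5777450 to 53598700 counts. Values below are CPM (counts scaled to a common library size) set within a tissue, so that levels are compared between tissues only as a description, and levels of different genes are compared only as CPM per kb of exon. The male libraries of liver, lung and brown adipose tissue carried many mitochondrially encoded reads: a median of 84.7% in Control and 72.4% in Deficient male liver against 5.41% and 5.95% in females, and 44.6% and 42.8% in male lung. Male heart had medians of 71.5% in Control and 68.1% in Deficient, against 27.2% and 25.3% in females. The male medians were 42.3% and 55.3% in spleen and 45.4% and 34.2% in quadriceps. In male gastrocnemius they were 38.5% and 23.6%, and in its tendon 37.3% and 31.2%. After mitochondrial and rRNA-like genes, male liver libraries held 396892 to 1501140 counts and female ones 16310200 to 24264600, so low-level members of male liver rest on few reads. The male liver medians were 514526 counts in Control and 1036850 in Deficient, so the depth differed with treatment. All 12 male kidney and all 12 male adrenal libraries came from a second series of animal numbers and all female ones from the first, so sex and cohort cannot be told apart in these tissues. The same holds for the extensor digitorum longus and tibialis anterior, the tendons of both, and the soleus. In males, 1 library each of brown adipose tissue and spleen came from the second series. So did 3 each of quadriceps and gastrocnemius, and 2 of gastrocnemius tendon. In bulk tissue, fewer cells of a type and less RNA per cell cannot be told apart either.

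Liver held the highest mean level of 35 members, kidney of 15, and ovary, testis and pituitary of 5 each. In Control females, 45 members exceeded 1 CPM per kb in liver, 26 in kidney, 19 in lung and 9 in brown adipose tissue. Female liver was led by Cyp2e1 (oxidation of ethanol and acetone) at 959 ± 154 CPM per kb (SD, n = 6), followed by Cyp3a11 at 328 ± 95.7 and Cyp2a4 at 207 ± 94.0. Male liver was led by Cyp2d10 at 182 ± 44.4 and Cyp2e1 at 150 ± 76.1, whose ranges overlap within their SD. In male kidney, Cyp4b1 (3061 ± 335 CPM per kb) and Cyp2e1 (2666 ± 390) stood far above Cyp2j5 (731 ± 84.9), whereas Cyp2j5, an arachidonic acid epoxygenase, led in female kidney at 451 ± 54.1. Lung was led in both sexes by Cyp2f2, the naphthalene-activating enzyme of club cells, at 1570 ± 156 in females and 1247 ± 510 in males. Cyp2f2 also led in the pituitary (101 ± 54.1 in females, 65.4 ± 11.9 in males), Cyp4f18 in spleen, Cyp4f39 in testis (11.8 ± 1.57), and Cyp2j6 in uterus (23.0 ± 8.81).

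**Figure D1:**
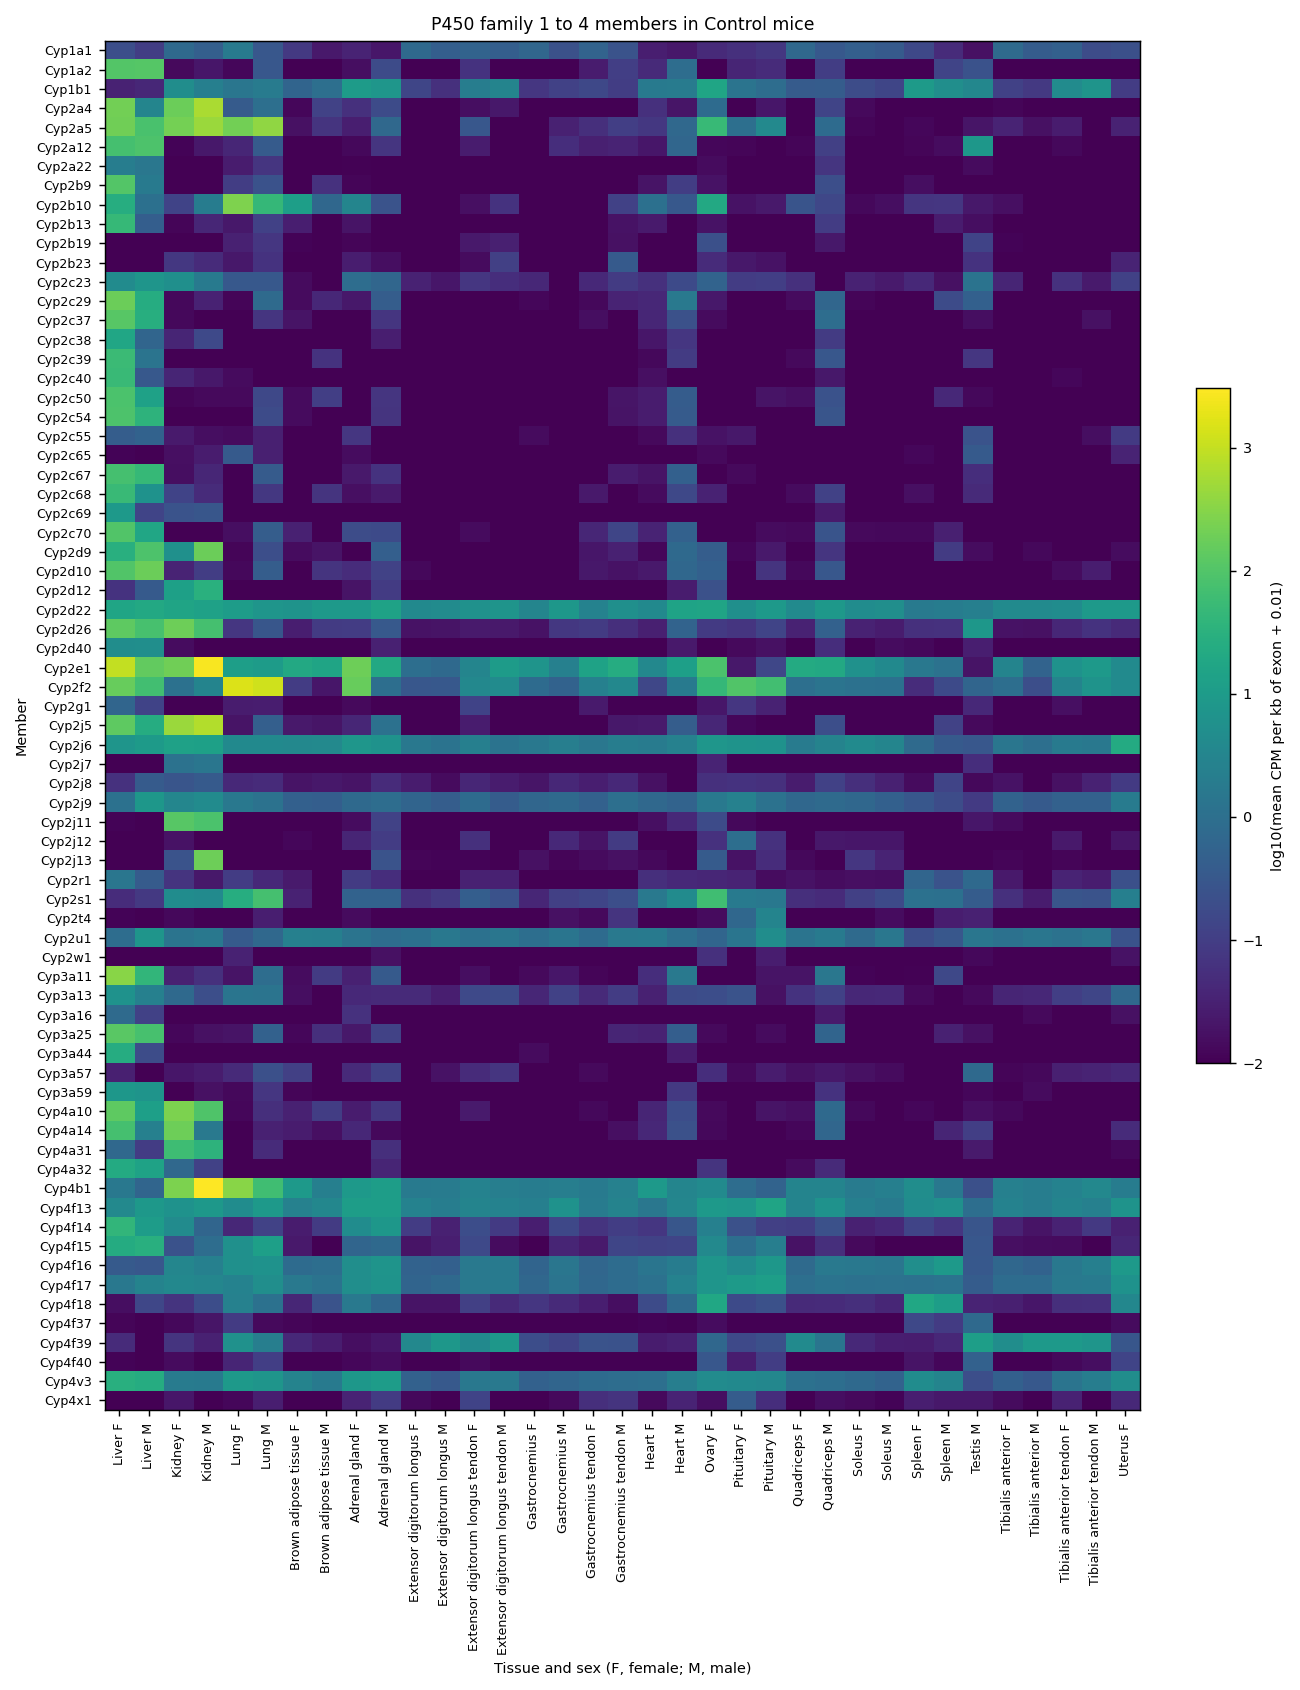
Mean level of P450 members in Control libraries by tissue and sex, in CPM per kb of exon on the log scale its colour bar gives. Liver, kidney and lung hold the high values, with Cyp4b1 and Cyp2e1 in male kidney at 3061 and 2666 CPM per kb and Cyp2f2 in female lung at 1570.

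The first comparison asks which P450 genes of the liver differ between Deficient and Control mice. A gene was called where edgeR's quasi-likelihood test, over all genes tested in the tissue, gave a Benjamini-Hochberg adjusted p under 0.05, and "rose" and "fell" below are used only of called genes. In liver 56 of the 71 members passed the filter on low counts. For 3 of them (Cyp1b1, Cyp2j8 and Cyp2d12) enough libraries reached the cutoff in 1 treatment arm only, and none of the 3 was called. In females 12 members rose and 7 fell, 33.9% of those tested against 4.93% of all genes. In males 18 rose and 8 fell, 46.4% against 8.53%. The median log2 fold change of the tested members was 0.18 in females and 0.61 in males, against 0.03 and 0.07 over all genes. The members' summed level was 9562 ± 360 CPM in Control and 12984 ± 1532 in Deficient females, and 3168 ± 525 and 4458 ± 1175 in males (SD, n = 6 each). Of the called members 13 moved the same way in both sexes (8 up and 5 down, 68.4% of the female and 50.0% of the male calls), and 0 moved in opposite directions. The like overlap over all genes was not computed, so these shares describe the members only.

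**Figure D2:**
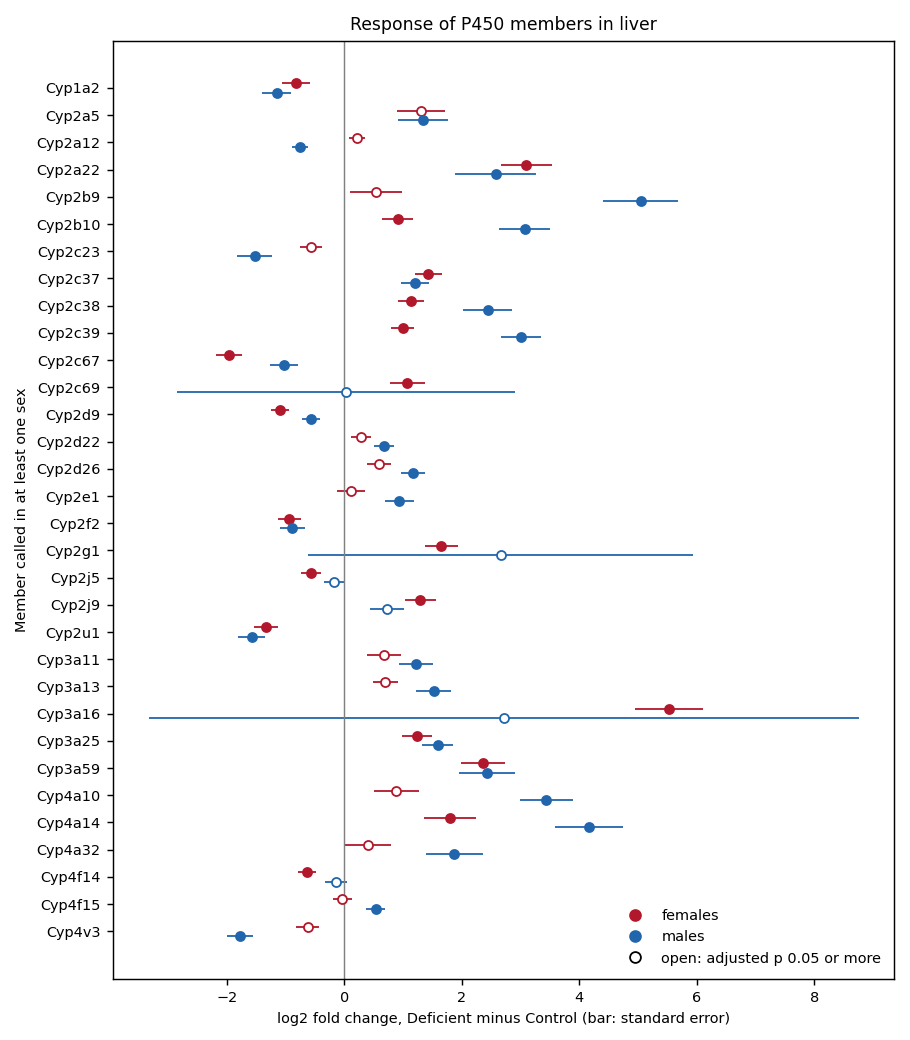
Log2 fold change (Deficient minus Control) of P450 members in the liver of females and males, with standard errors. Cyp3a16 in females (5.52) and Cyp2b9 in males (5.05) changed most, and Cyp2c67, Cyp2u1, Cyp2f2, Cyp1a2 and Cyp2d9 fell in both sexes.

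Among the Cyp3a genes, whose products hydroxylate steroids and many drugs, 3 of 6 tested rose in females and 4 in males, and 0 fell. Cyp3a16, a form of fetal, newborn and female liver, ranged from 0.268 to 3.18 CPM in Control females (median 1.13) and from 5.10 to 83.0 in Deficient females (median 61.6). Every Deficient female lay above every Control female, a 46.0-fold rise (log2 fold change 5.52, SE 0.58, adjusted p = 6.61e-07). In males Cyp3a16 had a median of 0 CPM in both arms and reached 1.10 in Control and 2.12 in Deficient. Cyp3a59 ranged from 5.56 to 31.6 CPM (median 14.2) in Control and from 37.5 to 107 (median 83.0) in Deficient females, a rise of 2.36 (SE 0.38, adjusted p = 0.000149) with no overlap. In males its median went from 8.60 to 45.0 CPM with overlapping arms, a rise of 2.43 (SE 0.47, adjusted p = 0.00172). Its neighbour Cyp3a25, with the near-identical promoter shown above, rose by 1.24 in females and 1.59 in males (SE 0.25 and 0.26, adjusted p = 0.00261 and 0.000297). Cyp3a11, the main PXR-inducible form of adult mouse liver, ran from 125 to 393 CPM (median 175) in Control and from 221 to 768 (median 492) in Deficient males and rose by 1.22 (SE 0.29, adjusted p = 0.0095). Its female arms, at medians of 1712 and 2677 CPM, were not called (0.68, SE 0.29, adjusted p = 0.212). Cyp3a13, a form also found outside the liver, rose by 1.52 in males (SE 0.30, adjusted p = 0.00191).

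The Cyp4a genes encode fatty acid omega-hydroxylases that PPARA induces in fasting. Cyp4a14 ranged from 114 to 329 CPM (median 179) in Control females and from 372 to 1117 (median 631) in Deficient females. The arms did not overlap, and it rose by 1.80 (SE 0.45, adjusted p = 0.0135). In males it ranged from 0.529 to 23.9 CPM (median 3.63) in Control and from 37.1 to 263 (median 48.7) in Deficient, again with no overlap and a rise of 4.16 (SE 0.58, adjusted p = 3.97e-05). Cyp4a10 rose in males from a median of 16.5 to one of 166 CPM (3.44, SE 0.46, adjusted p = 2.22e-05). Cyp4a32, which shares 43.8% of its 50-base words, rose in males by 1.87 (SE 0.49, adjusted p = 0.0161). Of the 18 listed PPARA targets outside these families that were tested in liver, 1 rose and 4 fell in females and 1 rose and 2 fell in males: the thioesterase gene Acot3 rose by 1.20 and 2.49, and the fatty acid binding protein gene Fabp1 fell by 1.49 and 1.59. Fgf21, the fasting hormone of the liver, fell by 2.75 in females. The share called over all genes was 4.93% in female and 8.53% in male liver.

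Cyp2b9, a female-predominant form under growth hormone control, was the member that differed most in Deficient male liver. Control males ranged from 0.245 to 13.2 CPM (median 1.53) and Deficient males from 12.8 to 233 (median 97.9). The lowest Deficient library lay just below the highest Control library, and the rise was 33.0-fold (log2 5.05, SE 0.64, adjusted p = 1.38e-05). In females Cyp2b9 had medians of 189 and 283 CPM and was not called (0.55, SE 0.45, adjusted p = 0.618). Cyp2b10, the classical CAR target, rose in males from 0.734 to 6.08 CPM (median 1.66) to 5.82 to 33.1 (median 16.3), a change of 3.07 (SE 0.43, adjusted p = 4.74e-05). In females it rose by 0.91 (SE 0.26, adjusted p = 0.0385), with arms that overlapped widely. Cyp2b13 was not called in either sex (adjusted p = 0.179 and 0.760). Of 14 other CAR and PXR targets tested, 6 rose and 1 fell in females and 3 rose and 1 fell in males. The share called over all genes was 4.93% in females and 8.53% in males. The transporter gene Slco1a4 (2.06 and 1.78) and the glutathione transferase gene Gsta2 (1.05 and 1.04) rose in both sexes, the estrogen sulfotransferase gene Sult1e1 rose by 3.15 in females, and Aldh1a7 fell in both. The receptor gene Nr1i3 rose by 0.85 in females and 0.83 in males (adjusted p = 0.0121 and 0.0126).

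Of the 13 Cyp2c genes tested, which include arachidonic acid epoxygenases, 4 rose and 1 fell in females, and 3 rose and 2 fell in males. Cyp2c39 ranged from 92.3 to 112 CPM (median 96.9) in Control and from 174 to 227 (median 197) in Deficient females, 1.0 higher on the log2 scale with no overlap (SE 0.20, adjusted p = 0.0017). In males it ran from 0.552 to 5.97 CPM (median 1.77) to 7.60 to 26.7 (median 14.9), a rise of 3.01 with no overlap (SE 0.35, adjusted p = 3.46e-06). Cyp2c38, with 94.22% coding identity to Cyp2c39, rose by 1.14 and 2.44, and Cyp2c37 by 1.43 and 1.20. Cyp2c69 rose in females by 1.08 (adjusted p = 0.0260). Cyp2c67 moved the other way, from 82.4 to 190 CPM (median 131) in Control to 24.3 to 48.7 (median 31.6) in Deficient females. It fell by 1.96 (SE 0.23, adjusted p = 1.54e-06) with no overlap, and by 1.03 in males (SE 0.23, adjusted p = 0.00655). Cyp2c23, an epoxygenase, fell in males by 1.53 (SE 0.30, adjusted p = 0.00162). Cyp2c29 was not called in either sex (0.76 and 0.77, adjusted p = 0.111 and 0.0818).

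Among the Cyp2a genes, Cyp2a22 rose in females from 3.57 to 10.8 CPM (median 7.47) to 20.9 to 137 (median 51.3), 3.10 on the log2 scale (SE 0.44, adjusted p = 3.4e-05) with no overlap, and in males by 2.58 (SE 0.70, adjusted p = 0.0201). Cyp2a5 rose in males by 1.34 (SE 0.43, adjusted p = 0.0478), where 1 Control library at 686 CPM lay above every Deficient library. In females its medians were 486 and 922 CPM (1.30, SE 0.41, adjusted p = 0.0659). Cyp2a4, the near copy, was not called (-0.20 and 0.20, adjusted p = 0.862 and 0.912). Cyp2a12 fell in males from a median of 305 to one of 169 CPM with no overlap (-0.75, SE 0.14, adjusted p = 0.00102). Cyp2g1, known from the olfactory epithelium, rose in females from a median of 0.953 to 3.02 CPM (1.65, SE 0.27, adjusted p = 0.000312). Cyp2e1 rose in males (0.94, SE 0.25, adjusted p = 0.0171). In females its log2 fold change was 0.11 (SE 0.24, adjusted p = 0.884), and the difference between the responses was not called.

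The falls common to both sexes held several known enzymes. Cyp1a2, which clears caffeine and aromatic amines, ranged from 164 to 285 CPM (median 202) in Control and from 94.1 to 157 (median 126) in Deficient females, and fell by 0.82 with no overlap (SE 0.24, adjusted p = 0.0431). In males it fell by 1.15 (SE 0.25, adjusted p = 0.00407), from a median of 219 to one of 87.3 CPM. Cyp1a1 and Cyp1b1, the inducible family 1 forms, were not called in liver, at medians of at most 0.850 CPM. Cyp2f2 fell from a median of 322 to 173 CPM in females, with no overlap (-0.93, SE 0.20, adjusted p = 0.00436), and by 0.88 in males. Cyp2d9, the male-predominant testosterone hydroxylase, fell by 1.10 in females (SE 0.16, adjusted p = 4.21e-05) and by 0.57 in males (SE 0.16, adjusted p = 0.0255). Cyp2u1, a long-chain fatty acid hydroxylase, had a range of 30.1 to 57.3 CPM in Control and 5.78 to 17.7 in Deficient males. It fell by 1.58 in males (SE 0.23, adjusted p = 6.08e-05) and by 1.33 in females (SE 0.20, adjusted p = 8.61e-05), with no overlap in either sex. Cyp4v3, a fatty acid omega-hydroxylase, fell in males from 51.0 to 136 CPM (median 105) to 13.6 to 46.1 (median 22.8), by 1.77 (SE 0.22, adjusted p = 1.07e-05). Cyp4f14, of the leukotriene-hydroxylating subfamily, and Cyp2j5 fell in females by 0.63 and 0.57.

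A list of 4 genes known as male-biased in mouse liver (Cyp2d9, Cyp2u1, Cyp4a12a and Cyp4a12b) had 4 of 4 lower in each sex, with a median log2 fold change of -2.22 in females and -2.15 in males. Cyp2j9, also higher in Control males but not on this list, rose in females by 1.29 (SE 0.26, adjusted p = 0.00227). Cyp4a12a, an omega-hydroxylase whose symbol keeps it outside the members, was at 113 ± 29.1 CPM in Control and 20.3 ± 22.2 in Deficient males, and at 9.02 ± 2.21 and 0.322 ± 0.258 in females (SD, n = 6 each). It fell by 2.97 and 4.73 (adjusted p = 0.00013 and 1.85e-07). Of 10 genes known as female-biased, 3 rose in females (Cyp3a16, Cyp4a14 and Cyp2c69), 2 rose in males (Cyp2b9 and Cyp4a14) and 0 fell, with medians of 0.52 and 1.93. These lists were chosen with results of these data known and are no independent evidence of direction. Beside these list counts, 4.93% of all genes were called in female liver and 8.53% in male liver. Among 25 tested receptors and regulators, the gene of Cux2, a female-biased repressor of male-biased liver genes, rose by 2.49 in females and 5.90 in males (adjusted p = 0.00154 and 0.0014). Por rose in male liver by 1.11 (adjusted p = 0.0257), and of 14 redox partners and heme synthesis genes 2 rose and 3 fell in males.

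Leaving out each of the 24 liver libraries in turn kept 13 of the 19 female and 19 of the 26 male calls. The calls lost most often were Cyp1a2 (16 of 24 omissions, adjusted p up to 0.136), Cyp2j5 (11, up to 0.136) and Cyp2b10 (10, up to 0.220) in females, and Cyp4f15 (17, up to 0.152) and Cyp2a5 (14, up to 0.165) in males. Without the male Deficient ZT05 replicate 3, whose rRNA-like share was 72.6%, 24 members were called in males. The summed level of 7 hepatocyte markers had a median of 55917 CPM in Control and 53258 in Deficient females, and of 17386 and 14499 in males.

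Control females and males differed at 39 of 56 members in liver (31 higher in females and 8 in males), 69.6% against 60.1% of all genes, so that most genes, not these alone, separated the sexes in these libraries. The mitochondrial share and the hepatocyte marker sum given above both moved with sex in liver, and their part in these differences was not tested. Cyp2c40 ranged from 49.3 to 180 CPM in Control females and from 0 to 1.66 in Control males, 7.52 higher in females (SE 0.46, adjusted p = 9.08e-14). Cyp3a44, Cyp2b13 and Cyp2a4 were higher in females by 6.86, 6.81 and 6.40. Cyp2u1 and Cyp2j9 were higher in males by a log2 difference (female minus male) of -3.20 and -3.0, and Cyp2d9 by -1.69. The response itself differed between the sexes for 5 members, 8.93% of those tested against 0.731% of all genes. Cyp2b9 differed most (female minus male response -4.50, SE 0.79, adjusted p = 0.012), and this call was kept in every omission of 1 library. Cyp4a10 (-2.55), Cyp2b10 (-2.16) and Cyp2c39 (-2.01) rose more in males, from Control levels that were far lower than in females, and Cyp2a12, at medians of 246 and 279 CPM in females, differed by 0.97. Their adjusted p ran from 0.0315 to 0.0463, and each was lost in 8 to 18 of 24 omissions.

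In kidney, where Cyp2j and Cyp4a enzymes turn arachidonic acid into epoxides and hydroxy acids, 35 members were tested, Cyp2c68 among them through 1 arm only. That was the Deficient arm, and Cyp2c68 is among the rises counted in both sexes. In females 11 rose and 2 fell (37.1% against 9.43% of all genes). In males 17 rose and 6 fell (65.7% against 40.8%). The median log2 fold change was 0.45 in females and 0.46 in males, against 0.01 and 0.03 over all genes. The members' summed level went opposite ways, from 4895 ± 273 to 6900 ± 1304 CPM in females and from 18668 ± 1551 to 13567 ± 2648 in males (SD, n = 6 each). The 9 members called the same way in both sexes were 69.2% of the female and 39.1% of the male calls, and Cyp2e1 was called in opposite directions. The like overlap over all genes was not computed, and 40.8% of all genes were called in males.

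Cyp2e1 ranged from 361 to 481 CPM (median 413) in Control and from 640 to 887 (median 718) in Deficient females, and rose by 0.81 with no overlap (SE 0.12, adjusted p = 0.000132). In males it ranged from 5179 to 7079 CPM (median 5247) in Control and from 2452 to 4910 (median 3529) in Deficient, and fell by 0.74 with no overlap (SE 0.12, adjusted p = 5.07e-05). Males were thus higher than females in both arms, and the difference between the responses was 1.55 (SE 0.17, adjusted p = 1.23e-05). Cyp4b1, a fatty acid hydroxylase that also activates furans, fell in males from 6112 to 8012 CPM (median 6835) to 2379 to 5274 (median 3442), by 0.96 (SE 0.14, adjusted p = 2.59e-05). In females it had medians of 594 and 695 CPM (0.23, SE 0.14, adjusted p = 0.312), and the responses differed by 1.19. Cyp2d9 showed a further pattern. It rose in females from 11.3 to 18.7 CPM (median 15.9) to 63.3 to 128 (median 68.0), by 2.40 (SE 0.18, adjusted p = 2.84e-08), and in males from a median of 512 to one of 737 (0.55, SE 0.16, adjusted p = 0.0103), with responses that differed by 1.84.

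In Control kidney Cyp4a14 was far higher in females, at 382 to 549 CPM (median 497) against 2.19 to 7.17 (median 3.69) in males. Deficient males ranged from 20.1 to 542 CPM (median 54.8), a 28.0-fold rise (log2 4.81, SE 0.63, adjusted p = 7.79e-06) with no overlap. Deficient females ranged from 578 to 2320 CPM (median 1103) and were not called (1.28, SE 0.50, adjusted p = 0.106), although no Deficient female lay below a Control female. The responses differed by -3.53 (SE 0.78, adjusted p = 0.00597). Cyp4a10 rose in both sexes, by 0.98 (SE 0.25, adjusted p = 0.0153) and 1.75 (SE 0.25, adjusted p = 2.09e-05). Of 17 other PPARA targets tested in kidney, 0 rose and 3 fell in females and 5 rose and 1 fell in males, where Acot3 rose by 1.58. Over all genes tested in kidney, 9.43% were called in females and 40.8% in males, so the male count is not above the background.

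Cyp2j5 ranged from 868 to 1209 CPM (median 1062) in Control and from 471 to 1095 (median 731) in Deficient females, and fell by 0.57 with overlapping arms (SE 0.14, adjusted p = 0.0148). In males it fell by 0.53 (SE 0.14, adjusted p = 0.00513). Cyp2j13 was a male form: Control males held 665 to 1074 CPM (median 891) and Control females 0.502 to 1.84. It fell in males by 1.41 with no overlap (SE 0.26, adjusted p = 0.000195). Cyp2j9 rose in both sexes (0.91 and 1.23). Cyp2b10 fell in male kidney from 1.88 to 12.4 CPM (median 2.22) to 0.359 to 1.19 (median 0.697), by 2.47 (SE 0.47, adjusted p = 0.000311), the opposite of its rise in male liver. Male kidney and male liver came from different mice, so tissue and cohort cannot be told apart in that contrast. In females Cyp2b10 was at most 1.57 CPM (1.51, SE 0.68, adjusted p = 0.165), and the responses differed by 3.98 (SE 0.84, adjusted p = 0.00421). Cyp2d26 and Cyp2c23 both rose by 1.41 in males (adjusted p = 3.88e-06 and 3.64e-06), and their responses differed between the sexes by -0.96 and -1.24. Cyp2d22 rose by 0.62 and 0.87, and Cyp2s1 by 0.53 and 0.82. The near copies Cyp2a4 (-0.35 and -0.37, adjusted p = 0.179 and 0.0732) and Cyp2a5 (0.80 and 0.56, adjusted p = 0.0535 and 0.0854) were not called in kidney.

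**Figure D3:**
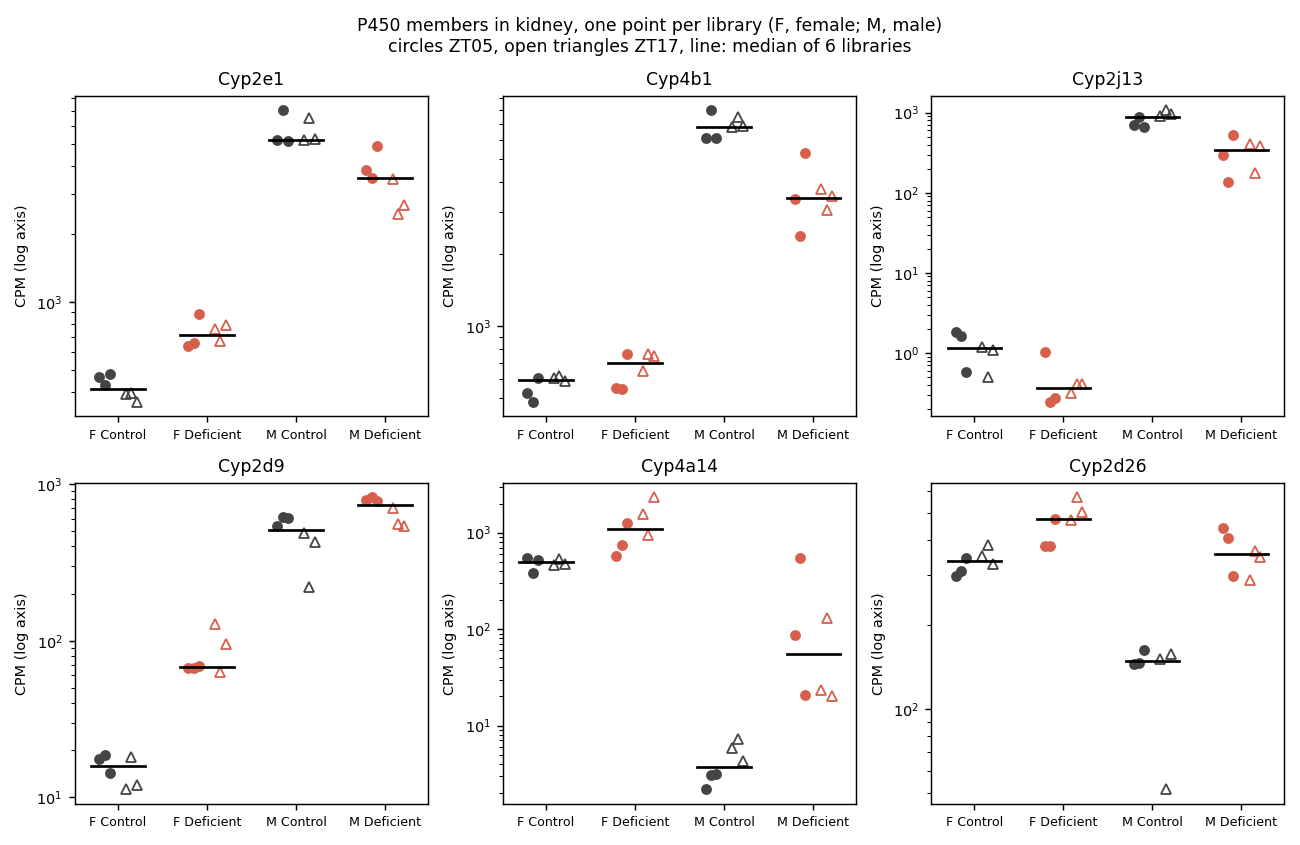
CPM of selected members in each kidney library on a log axis, by sex and treatment. Male Control libraries of Cyp2e1 lie between 5179 and 7079 CPM above the Deficient ones, while female Control libraries, at 361 to 481 CPM, lie below the Deficient females at 640 to 887.

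The male Control ZT17 replicate 2 stood apart in kidney: it had 221 CPM of Cyp2d9, 51.6 of Cyp2d26 and 40.6 of Cyp2d12, all the lowest of their arm, and 12.4 of Cyp2b10, the highest. The 7 differences between the sexes' responses (20% of tested members against 13.9% of all genes) were kept in every omission of 1 library, that library included, as were 8 of 13 female and 17 of 23 male calls. Without the female Deficient ZT17 replicate 3, only 8 members were called in females, and Cyp4a10, Cyp2j5, Cyp2j7, Cyp2j8 and Cyp4f15 were lost (adjusted p from 0.0551 to 0.102). The summed level of 7 kidney tubule markers (Slc34a1, Lrp2, Slc22a6, Slc22a8, Slc5a12, the androgen-dependent Kap, and Umod of the loop of Henle) moved beside these results, from a median of 66829 to 24353 CPM in males and from 20550 to 12563 in females, and 3 of the 7 fell and 2 rose by the test in males. In male kidney 5 of 6 macrophage markers fell (summed medians of 124 and 80.7 CPM), as did 4 of 5 T and B cell markers. Their part in the P450 changes was not tested. Of 14 redox partner and heme synthesis genes 1 rose and 8 fell in male kidney, Por among them by 0.78 (adjusted p = 0.000463). Nr1i3 rose in both sexes (1.81 and 1.82) and Nr1i2 in males (0.91). Of 11 other CAR and PXR targets 7 rose and 0 fell in males. In male kidney 40.8% of all genes were called in either direction, which is the background of these list and marker counts.

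Between Control females and males, 26 of 35 members differed in kidney, 13 in each direction, 74.3% against 67.4% of all genes. The largest differences were those of Cyp2j13 (-9.57, SE 0.38), Cyp4a14 (6.93, SE 0.67), Cyp2d9 (-4.94, SE 0.19), Cyp2b10 (-4.78, SE 0.55), Cyp2e1 (-3.78, SE 0.13) and Cyp4b1 (-3.61, SE 0.16), where negative values are higher in males (adjusted p at most 9.07e-08). Liver and kidney thus differed in the sex with more Cyp2e1: Control females were higher in liver by 2.82 and Control males in kidney. Cyp2a4 was likewise higher in female liver (6.40) and in male kidney (-1.74). Male liver and male kidney came from different mice, of the first and the second series of animal numbers. Tissue and cohort therefore cannot be told apart in the males of these comparisons. In Control liver the 7 hepatocyte markers also summed to a lower median in males (17386 CPM) than in females (55917). The mitochondrial share there was 84.7% in males and 5.41% in females. The part of both in the sex differences of liver was not tested.

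In lung 33 members were tested, with Cyp2c29, Cyp2b19 and Cyp3a57 passing through 1 arm only. Cyp3a57 is among the male rises counted below. In females 0 were called by edgeR's test (4 at an unadjusted p under 0.05, and 1 by DESeq2), against 0.108% of all genes. In males 5 rose and 0 fell, 15.2% against 5.24%. Cyp4b1 ranged from 95.6 to 187 CPM (median 142) in Control and from 170 to 313 (median 301) in Deficient males, and rose by 0.98 (SE 0.15, adjusted p = 0.000949). In females it was higher, with medians of 697 and 740 CPM (0.09, SE 0.14, adjusted p = 0.876), and the responses differed by -0.90 (SE 0.20, adjusted p = 0.0418), the only such call among the members of lung (3.03% against 0.788% of all genes), lost in 18 of 24 omissions. Cyp4f15 rose by 0.82 (SE 0.18, adjusted p = 0.0109), Cyp3a13 by 1.32, Cyp2a4 by 1.94 and Cyp3a57 by 3.73, the last at medians of 0.120 and 0.966 CPM. The latter 3 were each lost in 5 of 24 omissions (adjusted p up to 0.207), and with the male libraries fitted alone 0 of the 5 were called. Cyp2f2 had medians of 1998 CPM in Control and 3554 in Deficient males and was not called (0.51, SE 0.20, adjusted p = 0.144); 5 club cell markers summed to medians of 19651 and 35288 CPM in the same libraries. Hepatocyte markers summed to 22.3 to 452 CPM in Control males, against at most 8.72 in females. T and B cell markers fell in males (6 of 6), from a summed median of 69.5 to one of 21.8 CPM. The part of these cell types was not tested.

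In brown adipose tissue, where P450 levels were low, 14 members were tested, Cyp1a1 and Cyp2f2 through 1 arm only. Male libraries held a median of 79.8% mitochondrial reads in Control and 78.9% in Deficient, against 27.5% and 30.1% in females. After mitochondrial and rRNA-like genes they held 332749 to 2547000 counts in Control and 569680 to 14049700 in Deficient. Low values in males thus rest on few reads. In females 2 rose (14.3% against 0.898% of all genes) and in males 5 (35.7% against 4.62%), and 0 fell in either sex. Cyp2f2, which passed the filter through the Deficient arm only, is 1 of the calls in each sex, so the counts are a description. For Cyp2b10, Control females ranged from 1.31 to 56.9 CPM (median 20.9) and Deficient females from 52.1 to 293 (median 130), so the arms overlapped in their extremes (3.15, SE 0.40, adjusted p = 0.000163). Control males ranged from 0 to 4.21 CPM (median 0.991) and Deficient males from 24.7 to 156 (median 67.9), with no overlap (5.76, SE 0.55, adjusted p = 2.82e-06). Cyp2e1 rose in males from a median of 40.1 to one of 217 CPM (2.05, SE 0.40, adjusted p = 0.00436), and in females its medians were 44.8 and 123 (1.41, SE 0.38, adjusted p = 0.0743). Cyp4b1 (1.42) and Cyp4f17 (1.27) also rose in males. Cyp2f2 was called in both sexes at low levels: Control males held 0 to 0.145 CPM and Deficient males 0.164 to 3.57, and Control and Deficient females had medians of 0.148 and 0.630. With Cyp2b10, the members' summed level was 178 ± 44.3 and 391 ± 130 CPM in Control and Deficient females and 142 ± 35.2 and 413 ± 202 in males. Fitted alone, the male libraries gave 2 calls and the female ones 4. Brown adipocyte markers summed to medians of 4646 and 4815 CPM in females and 2671 and 2420 in males, and 1 of the 5 rose by the test in females and 2 in males. Of 6 adipocyte markers 2 rose in males, from a summed median of 3295 to one of 4535 CPM, and their part was not tested.

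The comparison of ZT17 with ZT05 asks how members differ between night and day. In Control liver, averaged over the sexes, 1 member was higher and 8 were lower at ZT17, 16.1% of those tested against 8.83% of all genes. Cyp3a59 fell most, from 22.3 ± 8.1 to 9.61 ± 3.5 CPM in females and from 23.3 ± 9.6 to 3.68 ± 1.3 in males (SD, n = 3 each), -1.94 on the log2 scale (SE 0.47, adjusted p = 0.00936). Cyp3a25 fell by 1.27 (SE 0.26, adjusted p = 0.00236) and Cyp2j9 by 1.21 (SE 0.29, adjusted p = 0.00783). Cyp2b10 was the one that rose, by 1.66 (SE 0.48, adjusted p = 0.029), from 21.6 ± 7.1 to 86.7 ± 13 CPM in females and from 1.35 ± 0.54 to 3.16 ± 2.5 in males, where the times overlapped; this call was lost in 2 of 24 omissions (adjusted p up to 0.284). Cyp4a32, Cyp2c23, Cyp2u1, Cyp2e1 and Cyp4f15 fell by 1.58, 0.97, 0.87, 0.80 and 0.66. In Deficient liver 0 of 56 members were called between the times by edgeR's test (3 at an unadjusted p under 0.05), against 0.738% of all genes.

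The response of 2 members, Cyp3a59 and Cyp3a25, differed between the times in liver (3.57% against 3.43% of all genes, a share near the background). In Deficient mice Cyp3a59 was at 79.4 ± 37 CPM at ZT05 and 71.0 ± 21 at ZT17 in females, and at 39.6 ± 48 and 61.9 ± 29 in males, where the 2 times overlapped within their SD. The response at ZT17 exceeded that at ZT05 by 2.13 for Cyp3a59 (SE 0.60, adjusted p = 0.0463) and 1.26 for Cyp3a25 (SE 0.36, adjusted p = 0.0488). Leaving out 1 library lost them in 17 and 18 of 24 cases, with adjusted p up to 0.0886 and 0.0977.

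**Figure D4:**
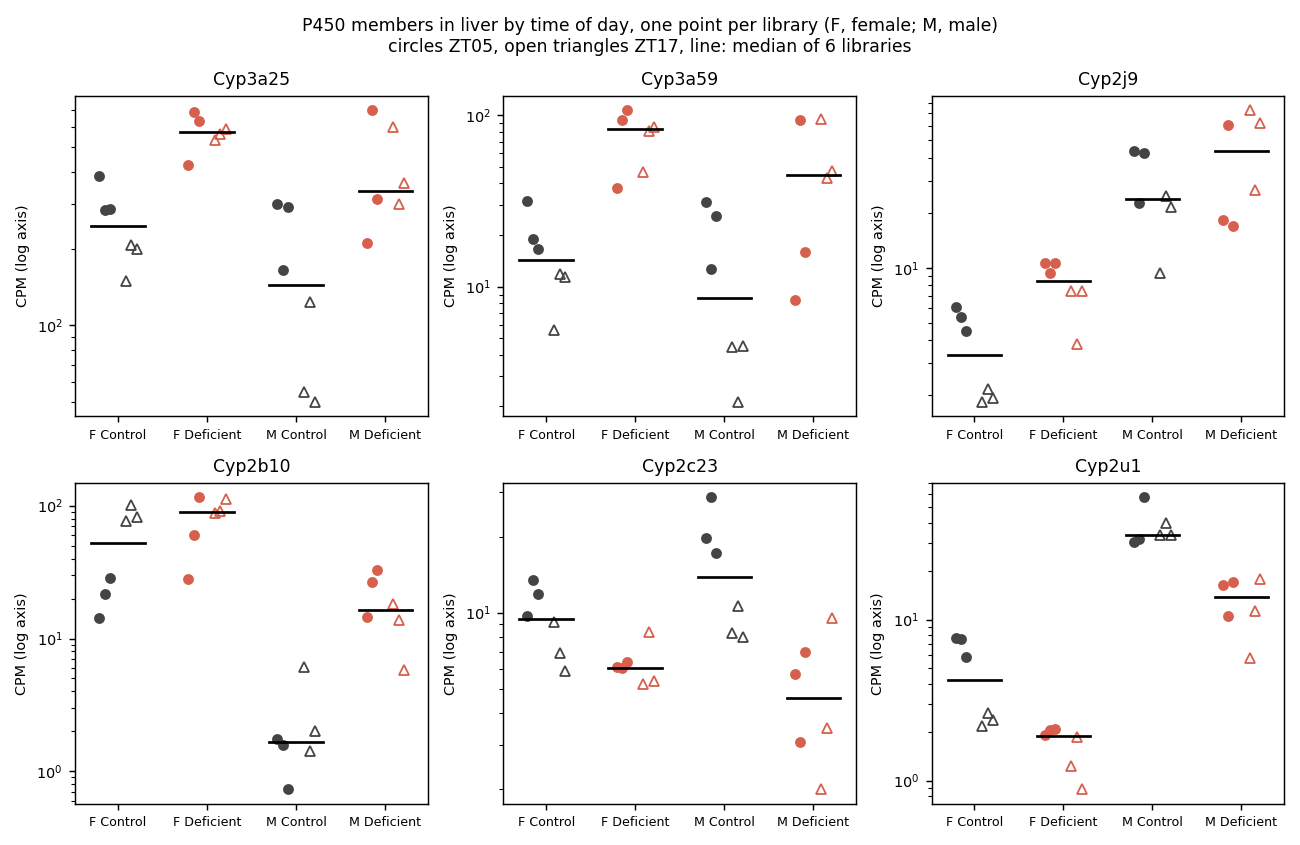
CPM of Cyp3a59, Cyp3a25 and other liver members whose level differed between the times, by sex, treatment and zeitgeber time on a log axis. Each point is a library (circles ZT05, open triangles ZT17) and each line a median of 6. In Control mice the Cyp3a59 mean drops from 22.3 to 9.61 CPM in females and from 23.3 to 3.68 in males, and in Deficient mice the times overlap.

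In Control kidney 1 member was higher and 5 were lower at ZT17 (17.1% against 13.7% of all genes): Cyp2b10 rose by 2.27, and Cyp2j9, Cyp2f2, Cyp2s1, Cyp2j6 and Cyp4f13 fell by 1.27, 0.77, 0.59, 0.31 and 0.31. Cyp2j9 fell at ZT17 in the kidney of Deficient mice as well (-0.96, SE 0.21, adjusted p = 0.0073), as did Cyp2s1, Cyp2j8 and Cyp2a5 (4 members in all, 11.4% against 7.56%). In Control lung 4 rose and 1 fell (15.2% against 14.2%), averaged over the sexes. Cyp1a1, the AhR-inducible form, was at 2.41 ± 0.49 CPM at ZT05 and 7.52 ± 1.4 at ZT17 in females, and at 0.157 ± 0.14 and 1.49 ± 1.5 in males, where the times overlapped within their SD. Averaged over the sexes the difference was 2.35 (SE 0.58, adjusted p = 0.0105), a call lost without the male Control ZT17 replicate 1 (adjusted p = 0.0683). Tested within a sex, 10 of 33 lung members were called between the times in Control males (30.3% against 22.4% of all genes), Cyp1a1 among them, and 0 in Control females by edgeR's test (5 at an unadjusted p under 0.05, against 0.297% of all genes called); the difference between the sexes was not tested. In Control brown adipose tissue 3 rose and 1 fell (28.6% against 16.0%), with Cyp2b10 2.50 higher at ZT17 (SE 0.72, adjusted p = 0.0206), from 3.65 ± 3.7 to 46.3 ± 12 CPM in females and from 0.755 ± 1.0 to 2.07 ± 1.9 in males. That call was lost without the male Control ZT17 replicate 3 (adjusted p = 0.274). Cyp2b10 was thus called higher at ZT17 in Control liver, kidney and brown adipose tissue, which come from overlapping sets of mice. In kidney its levels were low, and the highest Control value was that of the male ZT17 replicate 2 that stood apart. The kidney call was kept in every omission of 1 library, but those in liver and brown adipose tissue were not. The response differed between the times for 1 member in kidney (Cyp2j7, 1.15, 2.86% against 6.07% of all genes, lost in 17 of 24 omissions) and for 2 in brown adipose tissue (Cyp2u1, -1.43, and Cyp4f17, 1.32, 14.3% against 14.5%), shares at or below the background. In soleus it differed for Cyp2j9 (0.83) and Cyp4f13 (0.68), 14.3% against 3.86%, and in lung for 0 members by edgeR's test (5 at an unadjusted p under 0.05, and 1 by DESeq2), against 6.14%, again averaged over the sexes. Within males it differed for 5 of 33 lung members, all lower at ZT17 (Cyp2d22, Cyp4f39, Cyp4f15, Cyp4f13 and Cyp4f16, 15.2% against 16.1%), and for 4 of 14 in brown adipose tissue (Cyp2e1, Cyp2u1 and Cyp4f13 lower, Cyp4f17 higher, 28.6% against 24.8%). Within females edgeR's test called 0 members in lung (2 at an unadjusted p under 0.05), against 0% of all genes, and 0 in brown adipose tissue (2 at an unadjusted p under 0.05), against 0.0912%.

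In the other tissues the female response held 46 called pairs of member and tissue among 281 tested (39 up and 7 down, in 10 of 14 tissues), 16.4% against 12.0% of all gene and tissue pairs. Without 2 adrenal libraries high in kidney tubule markers, described below, the female count was 38. The 46 also include adrenal and uterus calls of members that passed the filter through 1 arm only, so the count is a description. The male response held 10 of 257 (9 up and 1 down, in 5 of 13 tissues), 3.89% against 3.60%, a share near the background. Among these tissues, male heart, spleen, quadriceps, gastrocnemius and gastrocnemius tendon had the high mitochondrial shares given above. Cyp2d22, a member of the Cyp2d subfamily, recurred most, and was singled out after its values were seen. It was called higher in 11 of 18 female tissues, with a positive log2 fold change in all 18, and in 6 of 17 male tissues, with 15 positive. Some of these calls did not hold with 1 library left out: omitting 1 library lost the female call in the adrenal gland in 21 of 24 cases, the pituitary in 15 of 24, the tibialis anterior tendon in 7 of 23 and the ovary in 5 of 12, and the male call in heart and liver in 3 of 24 each and in tibialis anterior in 1 of 24 (adjusted p up to 0.154). Among genes tested in every tissue of the sex, 14 of 11378 (0.123%) were called higher in at least 11 female tissues and 40 of 11051 (0.362%) in at least 6 male tissues. In female extensor digitorum longus muscle it ranged from 13.3 to 19.5 CPM (median 14.0) in Control and from 21.8 to 26.4 (median 23.9) in Deficient, 0.65 higher with no overlap (SE 0.08, adjusted p = 6.42e-06). In female heart it ran from 13.4 to 17 CPM (median 16.0) to 25.0 to 30.9 (median 26.0), 0.79 higher (SE 0.11, adjusted p = 0.000672). The female tissues come from the same mice, and the male tissues share mice within each series of animal numbers. The tissues are thus not independent samples of its response.

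**Figure D5:**
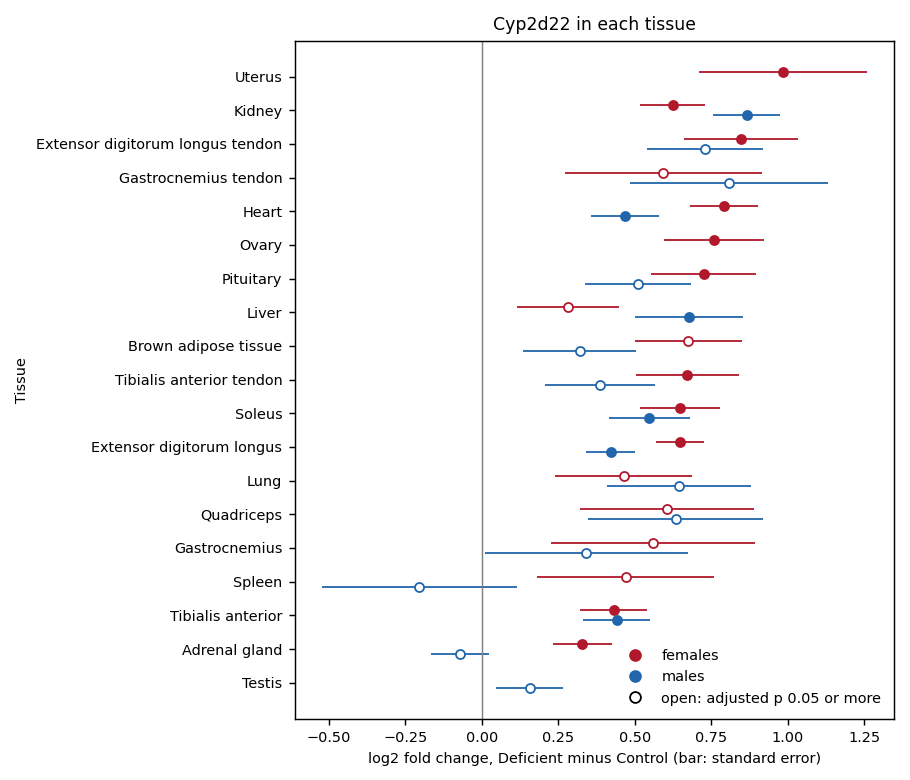
Log2 fold change of Cyp2d22 (Deficient minus Control) with its standard error in each tissue, for females and males, with open points where the adjusted p is 0.05 or more. All 18 female tissues lie above 0, and in males the adrenal gland (-0.07) and the spleen (-0.20) lie below it.

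Cyp1b1, which hydroxylates estradiol and retinoids, rose in heart in both sexes: from 7.62 to 12.7 CPM (median 10.8) to 13.1 to 24.7 (median 16.8) in females (0.74, SE 0.14, adjusted p = 0.00568), and by 0.93 in males (SE 0.16, adjusted p = 0.00333). It also rose in females in the uterus (2.68, where it passed the filter through the Deficient arm only), the extensor digitorum longus tendon (1.72), soleus (0.83) and tibialis anterior (0.76). In the same females macrophage markers fell in soleus (6 of 6, summed medians of 183 and 133 CPM) and tibialis anterior (5 of 6, 66.1 and 34.1 CPM), where 5 of 6 adipocyte markers also fell, and their part was not tested. Cyp1a1 rose in the extensor digitorum longus of both sexes (1.08 and 1.08). In the uterus 11 of 19 members were called (57.9% against 45.0%). Of the 19, 5 passed the filter through 1 arm only (Cyp1b1, Cyp3a13, Cyp1a1, Cyp4f39 and Cyp3a57), and 4 of these are among the 11 calls, so the count is a description. Cyp2j6, its leading member, fell from a median of 85.6 to 30.7 CPM (-1.44, SE 0.24, adjusted p = 0.000744), Cyp4f18 fell by 3.01 and Cyp3a57 rose by 4.51 at up to 3.54 CPM. Markers of other cell types moved in the same uterus libraries: 5 of 5 endothelial markers rose (summed medians of 248 and 427 CPM), 5 of 6 macrophage markers fell (679 and 368) and 3 of 3 neutrophil markers fell; their part in the P450 changes was not tested. In the ovary Cyp4b1 rose by 1.32 and Cyp4f17 by 0.45, beside Cyp2a5, whose Control libraries ranged from 19.5 to 193 CPM and Deficient from 210 to 606. Each of the 4 ovary calls (14.3% of tested members against 10.4% of all genes) was lost in at least 1 of 12 omissions. In the same ovary libraries 3 of 6 macrophage markers fell and 0 rose (summed medians of 327 and 195 CPM). Of 6 adipocyte markers 1 fell and 0 rose (1620 and 601 CPM). The part of these cell types in the ovary calls was not tested. In the female pituitary Cyp2f2 rose from a median of 164 to one of 413 CPM (1.05, SE 0.26, adjusted p = 0.0371) and Cyp2t4 by 1.68. These calls were lost in 8 and 10 of 24 omissions of 1 library, with adjusted p up to 0.119 and 0.122.

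Of 34 members tested in the adrenal gland 11 passed the filter through the Deficient arm only. In females 7 rose and 2 fell (26.5% against 5.42%), among them Cyp4a10, at 0 to 0.0838 CPM in Control and 0.0756 to 143 in Deficient. The female Deficient ZT17 replicate 1 held that 143 CPM, 210 of Cyp2a5, and 1006 CPM of the 7 kidney tubule markers, against at most 5.11 in Control females, and the male Control ZT05 replicate 2 held 236. Without these 2 libraries none of the 7 rises was called (adjusted p from 0.132 to 0.589), nor was the fall of Cyp4f14 (adjusted p = 0.058), while Cyp2f2 was still lower (-1.72, adjusted p = 0.00167). Cyp2f2 ranged from 183 to 503 CPM (median 338) in Control and from 54.5 to 144 (median 99.8) in Deficient females, with no overlap, and in males it was at most 6.40 CPM. Cyp2e1 rose in males from 17.5 to 82.1 CPM (median 42.8) to 181 to 465.8 (median 314), by 2.85 (SE 0.28, adjusted p = 1.86e-05), and Cyp2b10 by 3.55 (SE 0.49, adjusted p = 0.000692), both with no overlap and both called without those libraries. Of 6 adipocyte markers 4 rose in the same males, from a summed median of 639 to one of 2205 CPM, and their part was not tested. The responses of Cyp2f2 and Cyp2e1 differed between the sexes by -2.66 and -2.39 (adjusted p = 0.00086 and 0.00238), 5.88% of tested members against 1.78% of all genes.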

How the data were processed

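Gene counts as deposited by the authors, whole numbers per gene and library, were used for 419 bulk libraries of 19 tissues. Per the labels' protocols, libraries were made from TRIzol-extracted total RNA with a stranded poly(A) kit. The submitters' processing notes name the aligner STAR 2.7.10a, the genome GRCm38 (mm10), the trimmer cutadapt 4.1, the quality tool FastQC 0.11.9 and the package DESeq2 1.34.0. The counting tool and annotation are not given in the sources used here, and 0 value columns were left unused. Near copies can exchange reads at mapping, which affects the levels of single members.

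Each tissue was fitted with edgeR 4.0.16 in R 4.3.3: TMM scaling, a filter on low counts (minimum 10, total 15), 1 coefficient for each combination of sex, treatment and time, the quasi-likelihood F test, and Benjamini-Hochberg adjustment over all genes tested in the tissue. The standard errors come from the same fit. CPM used TMM-scaled library sizes, and CPM per kb used GENCODE M21 exon lengths. Coding sequences came from GENCODE M21 transcripts and promoters from a RefSeq table (GRCm38.p6), read with Python 3.11.15 and Biopython 1.88. The procedure was tested on simulated data. Libraries with separate animal numbers were taken as replicates.

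Alternatives were DESeq2 1.42.0, DESeq2 size factors, no filter, a stricter filter (5 CPM in 3 libraries), leaving out mitochondrial and rRNA-like genes, each sex alone, a cohort term, a replicate block and leaving out each library. The adrenal gland without 2 libraries was added after seeing the data. The members and gene lists were chosen with earlier results of these data known. Any member could be named: in the 4 main tissues called members above 1 CPM, up to 10 rises and 10 falls, and a fixed panel of well-known members; elsewhere up to 3 rises and 3 falls; and up to 6 differences for sex and time.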

Additional observations from a re-analysis of the deposited data

Results flagged for a closer look

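In 22 cases the response of a member differed between the sexes or between the times by a test of the difference itself. Female minus male response on the log2 scale was -2.39 for Cyp2e1 and -2.66 for Cyp2f2 in the adrenal gland. In kidney it was 3.98 for Cyp2b10, -1.24 for Cyp2c23, -0.96 for Cyp2d26, 1.84 for Cyp2d9, 1.55 for Cyp2e1, -3.53 for Cyp4a14 and 1.19 for Cyp4b1. In liver it was 0.97 for Cyp2a12, -2.16 for Cyp2b10, -4.50 for Cyp2b9, -2.01 for Cyp2c39 and -2.55 for Cyp4a10, and in lung -0.90 for Cyp4b1. The response at ZT17 minus that at ZT05 was -1.43 for Cyp2u1 and 1.32 for Cyp4f17 in brown adipose tissue, 1.15 for Cyp2j7 in kidney, 1.26 for Cyp3a25 and 2.13 for Cyp3a59 in liver, and 0.83 for Cyp2j9 and 0.68 for Cyp4f13 in soleus. Sex and cohort cannot be told apart in kidney and the adrenal gland.

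In 3 of 70 arms of 6 libraries or fewer, 1 library lay far from the others in the summed P450 level, where chance gives about 1 in 20. The adrenal female Deficient ZT17 replicate 1 held 1782 CPM (others 873.1 to 1105), and the adrenal male Control ZT05 replicate 2 held 502.7 (others 340.7 to 380.7). Both were high in kidney tubule markers. The gastrocnemius tendon male Deficient ZT17 replicate 2 held 3523 CPM (others 62.55 to 230.7), with 1247 CPM of Cyp2e1 and a hepatocyte marker sum of 28028 CPM. The part of these cell types in the P450 levels was not tested.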

How the results depend on the processing

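Counts of called members stayed within 1.5 times of the reported ones in 22 of 22 comparisons with DESeq2 size factors and with mitochondrial and rRNA-like genes left out. No named call reversed under any alternative run. Without the filter on low counts, more genes were tested and the counts were 30 for the female liver response, 17 for time and 9 for the time difference in liver, 11 for the sex difference in liver, 23 for the female response, 11 for time, 6 for the time difference and 12 for the sex difference in kidney, 4 for the female response and 4 for the time difference in brown adipose tissue, and 34 for males in other tissues. With DESeq2 they were 4 (liver time difference), 2 (kidney time difference), 1 (female lung), 1 (lung time difference), 4 (female brown adipose tissue), 4 (its time difference) and 18 (males, other tissues). The stricter filter gave 0 for the kidney time difference, 3 for male lung and 1 for female brown adipose tissue. Females alone gave 3 in lung and 4 in brown adipose tissue, males alone 0 and 2, and a cohort term 4 in female brown adipose tissue; the cause was not tested.

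Leaving out 1 library at a time, the counts ranged in liver from 14 to 24 (females), 21 to 28 (males), 6 to 10 (time), 0 to 5 (time difference), 37 to 40 (sex) and 1 to 7 (sex difference). In kidney they ranged from 8 to 16, 20 to 24, 6 to 8, 0 to 2, 25 to 29 and 7 to 9 in the same order. In lung they ranged from 0 to 0, 2 to 9, 2 to 8 and 0 to 2, in brown adipose tissue from 1 to 4, 4 to 5, 2 to 4 and 2 to 3, and in other tissues from 38 to 52 (females) and 8 to 16 (males). The count in female brown adipose tissue was 1 without the female Control ZT05 replicate 1 or ZT17 replicate 1, and that of males in other tissues was 16 without the gastrocnemius tendon male Deficient ZT17 replicate 1.

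Same-numbered replicates did not deviate together (mean correlation from -0.0340 to 0.0755 by tissue), so the numbers do not pair the samples. With the replicate number as a block, 22 members were called in female liver, 26 in male liver, 13 in female and 23 in male kidney, 0 and 6 in lung, 2 and 5 in brown adipose tissue, and 8 of 260 named calls were lost. In male liver and male brown adipose tissue, members under about 1 CPM rest on few reads.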
